A study of Homo sapiens with 24 samples.

Results

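Expression of 10 genes, most of which encode proteins that act at the plasma membrane, was examined by RNA-Seq in triple-negative breast cancer (TNBC) cell lines. These were AXL, GAS6, TYRO3, NT5E, CDCP1, CAV1, CAV2, ANXA1, PLAUR and F3. They were chosen by their level in the MDA-MB-231 libraries labelled KIF20A overexpression (OE) against the empty vector (EV) controls, for being nearly lost in the former, and were read by gene symbol in 4 tables. Their values in that comparison are therefore given as a description, with no test. The libraries labelled KIF20A OE are called OE-labelled libraries below. All 10 genes were among the 19283 genes listed for Hs578T, the 60651 listed for the KIF20A depletion experiment and the 23792 listed for the KIF20A OE experiment. Of the 18248 genes listed for HCC70, 8 were members; AXL and GAS6 were not listed in the table used here.

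The study asked which genes sustain breast cancer stem cells (BCSCs) and what the mitotic kinesin KIF20A does in them. It held 24 libraries, 3 for each of 8 conditions, in 3 established TNBC lines. From wild-type Hs578T and HCC70 cells, BCSCs that were CD24-CD44+ and ALDH+ and non-BCSCs lacking both marks were sorted by flow cytometry. MDA-MB-231 cells carried either a control sgRNA (sgCtrl) or KIF20A sgRNA #1 (KIF20A sg1), or else an empty vector or a KIF20A expression vector. These MDA-MB-231 cells were made by lentiviral infection and puromycin selection, and the depletion rested on 1 guide. The sample titles name no batch. Each sorted line, the depletion experiment and the OE experiment had a table of its own, and each was taken here as a batch. For the sorted lines, line and batch therefore cannot be told apart, whereas MDA-MB-231 was in both the depletion and the OE experiments. The paper's methods describe the 3 libraries of a group as biological triplicates.

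AXL and TYRO3 belong with MERTK to the TAM family of receptor tyrosine kinases, and GAS6 is their secreted, vitamin K-dependent ligand. NT5E (CD73) is the ectoenzyme that turns extracellular AMP into adenosine, and CDCP1 is a transmembrane protein that Src family kinases phosphorylate. CAV1 and CAV2 form the coat of caveolae, ANXA1 is a calcium-dependent phospholipid-binding protein, PLAUR is the receptor of urokinase, and F3 is tissue factor, the starter of the extrinsic coagulation pathway.

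On GRCh38 the 10 genes lie on 8 chromosomes. AXL is at chr19:41219223-41261766 on the plus strand, and PLAUR, on the same chromosome, is at chr19:43646095-43670547 on the minus strand. CAV2 (chr7:116287380-116508541) and CAV1 (chr7:116524994-116561179) are neighbors on the plus strand. NT5E is at chr6:85449584-85495791, CDCP1 at chr3:45082277-45146422, GAS6 at chr13:113820549-113864076, TYRO3 at chr15:41557675-41583589, ANXA1 at chr9:73151865-73170393 and F3 at chr1:94529173-94541759. In the GENCODE annotation, GAS6 shares 421 of its 6015 exon bases and AXL shares 67 of its 5134 with a gene on the opposite strand. The libraries were stranded, but the strand setting of the counting is not given in the sources used here.

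The promoter windows of 5 genes are printed since the results below turn on them. AXL, NT5E and CDCP1 were the genes most depleted in the OE-labelled libraries, TYRO3 was the member found higher there, and F3 varied most among the EV libraries. All 10 symbols matched RefSeq windows of 300 bases (250 before and 50 after a transcription start, GRCh38.p14), 15 windows in all. The windows shown are chr19:41218973-41219272 (plus strand) for AXL, chr6:85449833-85450132 (plus) for NT5E, chr3:45146329-45146628 (minus) for CDCP1, chr15:41558962-41559261 (plus) for TYRO3 and chr1:94541710-94542009 (minus) for F3, each written on the gene's strand from its 5-prime end. Capitals mark matches, on either strand, to the AP-1 motif TGANTCA, the TATA box TATAAA, the CCAAT box CCAAT or the TEAD motif GGAATG.
AXL: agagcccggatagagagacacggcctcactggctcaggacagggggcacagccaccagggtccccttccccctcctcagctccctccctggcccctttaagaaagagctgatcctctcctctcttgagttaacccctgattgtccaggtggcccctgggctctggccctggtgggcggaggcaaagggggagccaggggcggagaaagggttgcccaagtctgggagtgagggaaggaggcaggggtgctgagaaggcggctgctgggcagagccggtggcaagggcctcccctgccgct
NT5E: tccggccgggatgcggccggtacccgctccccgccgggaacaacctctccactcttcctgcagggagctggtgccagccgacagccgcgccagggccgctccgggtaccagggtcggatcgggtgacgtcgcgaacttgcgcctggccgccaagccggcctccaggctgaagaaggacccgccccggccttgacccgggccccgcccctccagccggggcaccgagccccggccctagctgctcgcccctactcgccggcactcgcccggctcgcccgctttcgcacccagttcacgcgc
CDCP1: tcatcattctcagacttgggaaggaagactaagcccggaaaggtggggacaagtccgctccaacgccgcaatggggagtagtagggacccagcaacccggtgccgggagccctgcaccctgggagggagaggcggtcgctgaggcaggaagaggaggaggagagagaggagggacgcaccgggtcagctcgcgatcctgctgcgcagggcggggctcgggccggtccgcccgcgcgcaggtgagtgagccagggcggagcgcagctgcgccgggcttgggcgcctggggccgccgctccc
TYRO3: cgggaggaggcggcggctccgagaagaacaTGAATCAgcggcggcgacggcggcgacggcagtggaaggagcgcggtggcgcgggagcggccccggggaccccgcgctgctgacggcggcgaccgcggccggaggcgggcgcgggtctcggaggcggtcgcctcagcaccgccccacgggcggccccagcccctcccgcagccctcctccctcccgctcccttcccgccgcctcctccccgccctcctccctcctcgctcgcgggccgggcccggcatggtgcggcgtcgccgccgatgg
F3: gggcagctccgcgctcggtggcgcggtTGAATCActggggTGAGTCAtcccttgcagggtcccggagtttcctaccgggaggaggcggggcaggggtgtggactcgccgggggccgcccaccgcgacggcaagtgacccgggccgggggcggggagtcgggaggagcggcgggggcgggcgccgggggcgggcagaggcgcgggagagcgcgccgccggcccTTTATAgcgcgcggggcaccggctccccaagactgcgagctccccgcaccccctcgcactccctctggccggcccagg
The AP-1 motif was found in 3 of the 15 member windows, those of TYRO3, PLAUR and F3, against 7.71% of all 35116 windows. F3 held it at positions -223 and -210 from the start, and a TATA box, on the opposite strand, at -28. The TATA box was found in the windows of ANXA1 and F3 and in 11.5% of all windows. The TEAD motif was found in 1 window, that of a second start of AXL, and in 14% of all windows. The CCAAT box was found in ANXA1 only among these genes, and in 34.6% of all windows. No match to the 4 motifs was found in the AXL window shown or in the windows of NT5E and CDCP1. GC content of the windows shown was 66% for AXL, 75% for NT5E, 70.3% for CDCP1, 80.3% for TYRO3 and 77.3% for F3, against a median of 58.7% over all windows.

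Whole reads could be recovered from all 4 tables, and depth ranged from 15971297 to 22182293 reads in the OE experiment, from 41424338 to 51018667 in the depletion experiment and from 24681218 to 33715701 in the sorted lines. KIF20A was listed at 101, 143 and 124 CPM (reads of a gene scaled to the library total) in EV and at 1348, 269 and 896 CPM in the OE-labelled libraries. With sgRNA, KIF20A was at 153, 173 and 156 in sgCtrl and at 122, 145 and 91.1 in KIF20A sg1 (log2 difference -0.45, standard error 0.16, adjusted p = 0.69 from limma), without overlap. The OE-labelled libraries went against the label of MDA-MB-231 in several markers. This is a description, since the lists were chosen with earlier results of these data known. Of 8 embryonic kidney and neurofilament genes, all 8 were at 1 CPM or more in each of these libraries. Their summed level was 1363 to 1968 CPM, most of it IRS4 (mean 1571 CPM). In EV none reached 1 CPM in every library, the sum was 0.193 to 5.28 CPM, and PAX2, IRS4 and NEFL were at 0. In the depletion experiment the sum was 17.7 to 37.6, nearly all of it WT1, which was higher there (mean 24.1 in sgCtrl and 26.6 in KIF20A sg1) than in the OE-labelled libraries (11.2 CPM), in tables that were normalized separately; none of the other 7 genes reached 1 in any of those libraries. The summed level of 5 mesenchymal markers was 489 to 920 CPM in the OE-labelled libraries, against 4693 to 5676 CPM in EV. VIM, CD44, FN1 and ZEB1 were each lower than in EV, whereas SPARC had a higher mean (56.7 against 17.1 CPM in EV), with overlap. In the depletion experiment, normalized separately, the sum was 2307 to 2910. VIM in sgCtrl (mean 679) overlapped with the OE-labelled libraries (mean 556 CPM), and SPARC was lower in sgCtrl (0.594). CD44 (1403), FN1 (405) and ZEB1 (63.4) were higher in sgCtrl than in the OE-labelled libraries (0.557, 27.4 and 43.1 CPM). The part that these differences have in the values of the 10 genes was not tested, and the name given to these libraries is only their label.

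In the OE-labelled libraries, 9 of the 10 genes were below every EV library, and TYRO3 was above every EV library. Of the 15265 genes tested in this experiment, 25.2% lay below and 48.9% above EV in this way; the genes were chosen for this contrast, so nothing is read from their count. The median difference of the 10 genes was -5.27 on the log2(CPM + 1) scale, against 0.37 for all genes tested, and ranged from -9.93 for NT5E to 1.96 for TYRO3. In bulk RNA, fewer cells of a type and less RNA per cell cannot be told apart. The 10 genes fell into 3 ranges of what was left, under 0.1% of the EV mean, 0.806 to 6.39%, and above 10%, as the plot of the level left shows.

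**Figure D1:**
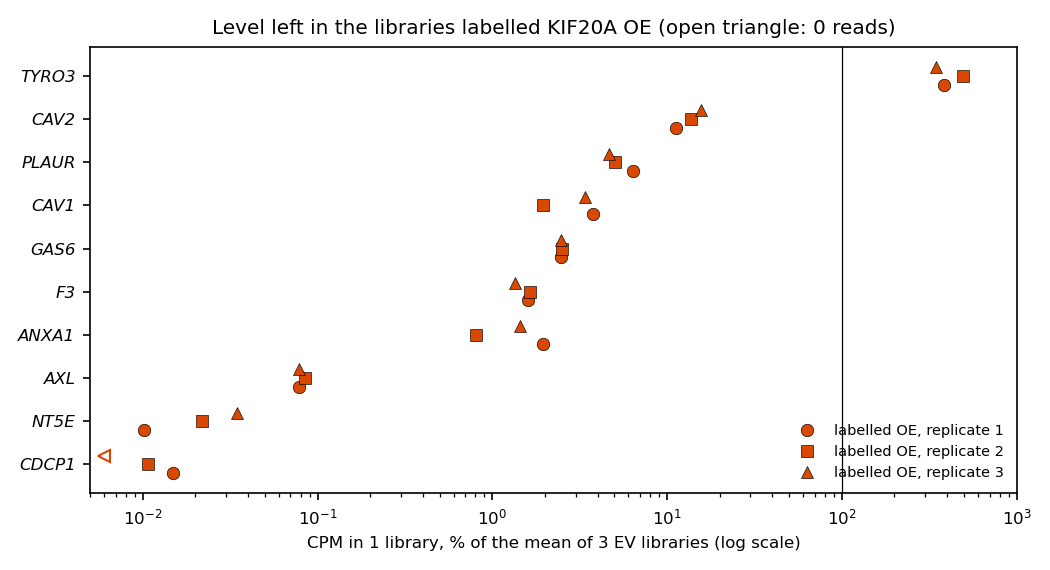
Level of each gene in each of the 3 OE-labelled libraries, as percent of the mean of the 3 EV libraries, on a log axis; symbols are replicates, the vertical line marks 100% and the open triangle a library with 0 reads. AXL, NT5E and CDCP1 were under 0.1% in every library, CAV2 kept 11.3 to 15.7%, and TYRO3 stood at 345 to 494%.

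The TAM receptor AXL was listed at 967, 1107 and 811 CPM in EV and at 0.751, 0.811 and 0.75 CPM in the OE-labelled libraries. These last values came from 12, 18 and 14 reads. What was left was 0.078, 0.084 and 0.078% of the EV mean, a nearly equal share in the 3 libraries, and the ratio of the means was 1248. Its ligand GAS6 was at 290.4, 184 and 259.8 CPM in EV and at 6.07, 6.13 and 6.05 CPM in the OE-labelled libraries. For GAS6 the share left was between 2.47 and 2.5%, from 97 to 136 reads a library. The other TAM receptor, TYRO3, went the other way. TYRO3 was at 9, 15.6 and 12.4 CPM in EV and at 47.6, 60.9 and 42.6 CPM in the OE-labelled libraries, a ratio of the means of 4.08. MERTK, the remaining TAM receptor, was lower with 22.8 ± 0.251 against 49.2 ± 11 CPM in EV (SD, n = 3, log2 difference -1.05, standard error 0.18).

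NT5E, which makes adenosine at the cell surface, was at 1191, 1273 and 1254 CPM in EV. In the OE-labelled libraries it was at 0.125, 0.27 and 0.428 CPM, from 2, 6 and 8 reads. The ratio of pooled reads per depth was 4398, with an exact Poisson 95% interval of the reads left giving 2708 to 7694; such intervals cover counting error only. CDCP1 was at 884, 805 and 819 CPM in EV and at 0.125, 0.0902 and 0 CPM in the OE-labelled libraries. It thus rested on 4 reads in all, and the same interval gave a ratio of 4647 to 43667. No other member was at so small a share of its EV mean as CDCP1 and NT5E, although their intervals overlap.

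The caveolins differed from each other in these libraries. CAV1 was at 771, 681 and 664 CPM in EV and at 26.5, 13.8 and 24 CPM in the OE-labelled libraries. CAV2 was at 218, 146 and 187 CPM in EV and at 20.7, 25.3 and 28.8 CPM. CAV1 thus kept 1.96 to 3.76% and CAV2 11.3 to 15.7% of the EV mean, and these ranges do not overlap. The ratio of CAV1 to CAV2 in CPM was 3.53, 4.66 and 3.54 in EV and 1.28, 0.544 and 0.833 in the OE-labelled libraries.

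ANXA1 had the most even level in EV, with 705, 692 and 702 CPM, and was at 13.7, 5.64 and 10.1 CPM in the OE-labelled libraries. The members did not share an order among these 3 libraries. In replicate 2, which held the least KIF20A of the 3, ANXA1 and CAV1 were lowest, whereas AXL, GAS6, F3 and TYRO3 were highest. NT5E, CDCP1, CAV2 and PLAUR lay between. The urokinase receptor PLAUR was at 182, 234 and 328 CPM in EV and at 15.8, 12.5 and 11.5 CPM, or 4.64 to 6.39% of the EV mean. F3 was at 562, 297 and 97.7 CPM in EV and at 5.13, 5.23 and 4.28 CPM in the OE-labelled libraries. The EV libraries thus spread widely for F3: their SD was 1.27 on the log2 scale, the second largest of the 2585 genes with a mean of at least 100 CPM in EV, whose median SD was 0.17. In the OE-labelled libraries the F3 values lay close together.

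Near loss was also counted over all genes well expressed in EV, as a description. The limit was set in EV alone, and the members were chosen for near loss. The shares therefore do not show that the members are unusual. Of the 2167 genes at 100 CPM or more in every EV library, 49 (2.26%) were under 1% of the EV mean in every OE-labelled library. AXL, NT5E and CDCP1 were 3 of these 49, as the choice of the genes fixed. Under 5% were 98 genes (4.52%), with GAS6, CAV1 and ANXA1 added, and under 10% were 155 genes (7.15%), with PLAUR added. CAV2 lay just outside that limit and F3 did not reach 100 CPM in every EV library.

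Partners of the 10 genes were followed in 8 lists of 79 genes, of which 62 were tested in this experiment. Of these, 45 were lower and 7 were higher than in EV at an adjusted p under 0.05 by limma, against 23.4% lower and 46.2% higher of all genes tested. Their median difference was -1.53. The lists were put together with earlier results of these data known, so their counts and the tests of single partners are a description.

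**Figure D2:**
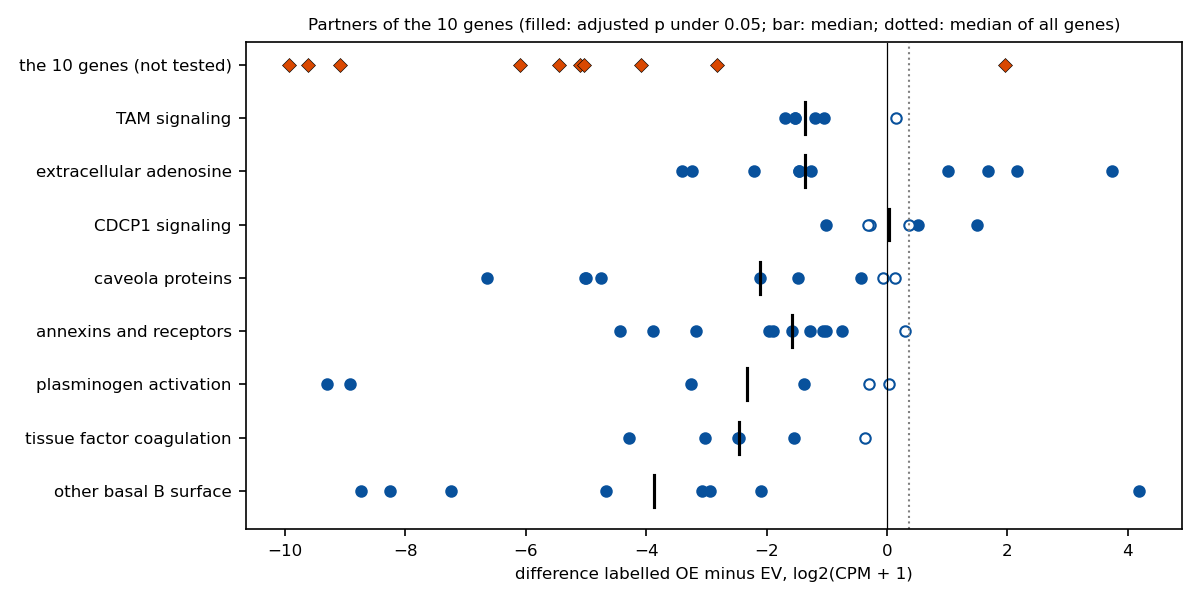
Difference between the OE-labelled libraries and EV in log2(CPM + 1) for the 10 genes (diamonds, not tested) and for each tested gene of 8 partner lists (circles, filled where the adjusted p was under 0.05); bars are list medians and the dotted line is the median of all genes, 0.37. Most partners lie to the left of 0, and CD109, ADA, ADORA1, ENTPD1, LYN, SLC29A2 and FYN are the 7 that were higher.

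Among caveola proteins, 7 of 9 were lower and none higher, with a median of -2.11. CAVIN3 was at 104 CPM in EV and at 0.0357 CPM in the OE-labelled libraries, CAVIN2 at 42.4 and 0.293 CPM, and the membrane-bound ATPase EHD2 at 428 and 13 CPM (log2 differences -6.64, -5.02 and -4.99). CAVIN3 and CAVIN2 met the minimum of the fit through EV alone. The cavins coat caveolae together with CAV1. Of annexins and their partners, 10 of 11 were lower, among them ANXA3 (60.3 to 1.81 CPM), ANXA8 (18.6 to 0.0601 CPM) and ANXA2 (1845 to 209 CPM). In plasminogen activation, 4 of 6 were lower, among them PLAU, which encodes urokinase, the ligand of PLAUR (704 to 0.457 CPM), and PLAT (102 to 8.75 CPM). In tissue factor coagulation, 5 of 6 were lower. Among them were THBD, a surface protein that binds thrombin (64.9 to 2.5 CPM), the tissue factor inhibitor TFPI (80.5 to 9.85 CPM) and TFPI2 (33.3 to 4.83 CPM).

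The adenosine list was split, with 6 of 10 lower and 4 higher. ENTPD3 (11.7 to 0.125 CPM) and the nucleotide pyrophosphatase ENPP1 (578 to 55.6 CPM) were lower, whereas ADA, which breaks adenosine down, was at 0.597 CPM in EV and at 19.5 CPM in the OE-labelled libraries. Of 6 tested genes of CDCP1 signaling, 2 were higher (LYN, 18.3 to 52.7 CPM, and FYN, 73.3 to 104.5 CPM) and 1 was lower (YES1, 182 to 87 CPM). All 3 are Src family kinases. In TAM signaling, 5 of 6 were lower, with the ligand PROS1 (75.7 to 21.4 CPM), GGCX, which carboxylates GAS6 (173 to 57.8 CPM), and the sheddase ADAM10 (176 to 60.3 CPM) the furthest down. Among 8 other surface genes listed as basal B markers, 7 were lower, led by CD44 (642 to 0.557 CPM), TM4SF1 (316 to 0.0357 CPM) and the cytokine receptor OSMR (159 to 0.0417 CPM). CD109, a surface protein, was not lower but higher, at 0.339 CPM in EV but at 24 CPM in the OE-labelled libraries.

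Depletion of KIF20A left no member past the test. None of the 10 genes had an adjusted p under 0.05 in KIF20A sg1 against sgCtrl (limma, adjusted p = 0.72 to 0.97), and 0% of the 12852 genes tested passed. At an unadjusted p under 0.05 there were 899 genes in all (7%) and no member, and edgeR and DESeq2 on recovered reads called no member either. In the deposited values the groups overlapped for all 10 genes, where 13% of all genes were separated. Differences ranged from -0.18 for TYRO3 to 0.26 for ANXA1 on the log2 scale, with standard errors of 0.14 to 0.2, so that changes of this size were not detectable here.

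AXL was listed at 1545, 1920 and 1667 in sgCtrl and at 1474, 1510 and 1545 in KIF20A sg1, values the authors call CPM. NT5E was at 537, 603 and 749.6 and at 822, 522 and 777, and CDCP1 at 718, 788 and 529 and at 805, 699 and 879.6. AXL overlapped only at the edge of the groups (lowest sgCtrl value 1545.15, highest KIF20A sg1 value 1545.27), and NT5E and CDCP1 overlapped widely. Scaled instead to the recovered reads, AXL was separated, at 1581 to 1894 CPM in sgCtrl and at 1468 to 1564 CPM in KIF20A sg1. The share of all genes separated on that scale was not counted. CAV1 was at 895, 1198 and 1343 in sgCtrl and at 1087, 1482 and 963 in KIF20A sg1. ANXA1 ranged from 428 to 647 in sgCtrl and from 613 to 661 in KIF20A sg1. None of the 63 tested partner genes passed in limma, and 6 had an unadjusted p under 0.05.

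In sorted Hs578T cells, AXL was the only member that passed the test between BCSCs and non-BCSCs, and the change was small. AXL was at 670.2, 691 and 672 TPM (reads scaled by transcript length and library total) in non-BCSCs and at 806, 749.8 and 812 TPM in BCSCs. The groups did not overlap, and the difference was 0.22 on the log2 scale (standard error 0.05, adjusted p = 0.033 from limma), a ratio of 1.16. Of the 13324 genes tested, 7.15% passed, 2.9% higher and 4.26% lower, so that 1 of 9 members is near the share of all genes. AXL lost the call in 7 of 11 alternatives, among them leaving out any non-BCSC library or BCSC replicate 1 or 3 (adjusted p = 0.073 to 0.16) and a fit without a minimum level (adjusted p = 0.066); over the 11 alternatives the adjusted p ranged from 0.012 to 0.16.

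**Figure D3:**
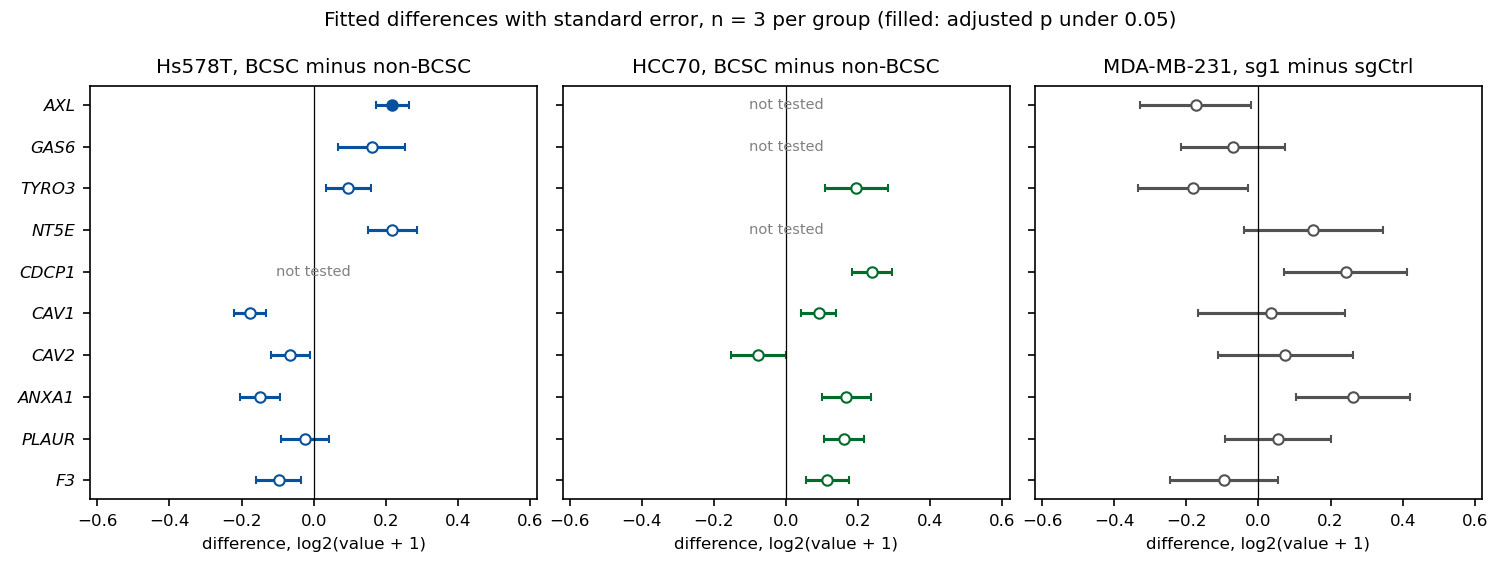
Fitted difference of each gene, as log2(value + 1), with its standard error (n = 3 per group), between the sorted groups of each line (BCSCs minus non-BCSCs) and between KIF20A sg1 and sgCtrl; filled points have an adjusted p under 0.05. AXL in Hs578T is the only filled point, and standard errors are largest in the depletion experiment, 0.14 to 0.2.

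The groups were also separated for NT5E, CAV1 and ANXA1 in Hs578T, making 4 of 9 members, where 29% of all genes tested were separated. NT5E was at 65.9, 61.1 and 55.3 TPM in non-BCSCs and at 68.6, 73.2 and 70.4 TPM in BCSCs (difference 0.22, standard error 0.07, adjusted p = 0.1 from limma). CAV1 was at 525, 516 and 493 TPM in non-BCSCs and at 458, 439.8 and 459 TPM in BCSCs (difference -0.18, standard error 0.04, adjusted p = 0.055 from limma). CAV1 passed after rescaling by the median of ratios (difference -0.15, adjusted p = 0.031 from limma) and without non-BCSC replicate 3 (adjusted p = 0.047 from limma), within a range of 0.031 to 0.23 over 11 alternatives. ANXA1 was at 651, 639.5 and 592 TPM in non-BCSCs and at 579.9, 536 and 580.4 TPM in BCSCs (difference -0.15, standard error 0.05, adjusted p = 0.16 from limma).

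The other members overlapped between the sorted groups of Hs578T. GAS6 was at 10.7 to 13.4 TPM in non-BCSCs and at 12.3 to 15 TPM in BCSCs, TYRO3 at 21.4 to 22.8 and 21.9 to 25.4 TPM, and CAV2 at 81.5 to 91.7 and 81.5 to 85.8 TPM. PLAUR differed by -0.02 (standard error 0.07) and F3 by -0.1 (standard error 0.06). CDCP1 was barely detected in Hs578T, at 0.44 to 0.815 TPM, from 32 to 71 reads a library, and was below the minimum for the test. Per transcript length, AXL (678 TPM in non-BCSCs), ANXA1 (627.5 TPM) and CAV1 (511 TPM) were the members with the highest levels in this line, and the receptor AXL stood far above its ligand GAS6 (12.1 TPM). The summed level of 6 fibroblast markers, which Hs578T expresses, was 2111 to 2164 TPM in the non-BCSC libraries and 970 to 1021 TPM in those of BCSCs, and all 6 were at 1 TPM or more in every library. Of 5 mesenchymal markers the sum was 13938 to 14132 and 11773 to 12868 TPM. FN1 (8091 to 6522 TPM) and SPARC (1627 to 1248 TPM) were lower in BCSCs, whereas VIM was higher (3699 to 3893 TPM). CD44 and ZEB1 overlapped. The part of the fibroblast and mesenchymal markers in the results was not tested.

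Of the partner genes, 53 were tested in Hs578T, and 6 were higher and 4 lower in BCSCs, against 2.9% higher and 4.26% lower of all genes tested. These lists, too, were composed with results known, and leaving out non-BCSC replicate 2 cut the calls over all genes from 953 to 343. Plasminogen activation held 3 of them. PLAT, the tissue-type plasminogen activator, was at 278 ± 4.92 TPM in non-BCSCs and at 451 ± 10.9 TPM in BCSCs (SD, n = 3; difference 0.7, standard error 0.04, adjusted p = 0.00016 from limma). SERPINE2, a protease inhibitor, was higher (516 to 626 TPM) and the endocytic receptor LRP1 lower (28.2 to 21.5 TPM). The adenosine receptors ADORA2A (8.85 to 12.1 TPM) and ADORA2B (92.2 to 109.5 TPM) and the protease-activated receptors F2R (35 to 42.6 TPM) and F2RL2 (27.4 to 34 TPM) were higher in BCSCs. PROS1 (20 to 16.6 TPM), ANXA4 (36.5 to 30.1 TPM) and S100A10 (366 to 301 TPM) were lower. The median difference of the 53 genes was 0.04, against -0.01 for all genes tested.

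In sorted HCC70 cells, no member passed (0 of 7 tested, adjusted p = 0.061 to 0.58 from limma), where 2.83% of 13218 genes did. At an unadjusted p under 0.05 there were 3 of them, CDCP1, PLAUR and ANXA1, and 23.7% of all genes. In TPM the groups were separated for 6 of the 7 members, all with BCSCs above. Of all genes tested, 20.9% were separated in this direction and 30.9% in either. As CPM of the recovered reads, TYRO3 overlapped (30.7 to 38.9 in non-BCSCs and 37.4 to 42 in BCSCs). On that scale CAV1 and F3 were separated only narrowly, with non-BCSCs up to 304.1 and 12.19 and BCSCs from 304.6 and 12.21. The median difference of the 7 members was 0.16, against 0.02 for all genes. CDCP1 came closest to the threshold, with 51.3, 55.6 and 54 TPM in non-BCSCs and 62.9, 61.9 and 65.4 TPM in BCSCs (difference 0.24, standard error 0.05, adjusted p = 0.061 from limma).

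TYRO3 was at 19, 23.4 and 23 TPM in HCC70 non-BCSCs and at 24.7, 26.1 and 24.1 TPM in BCSCs, and PLAUR at 18.7, 18.6 and 18.5 and at 21.3, 20.1 and 21.4 TPM. F3 was at 11.6 to 12.2 TPM in non-BCSCs and at 12.9 to 13 TPM in BCSCs. CAV2 was the member whose groups overlapped, with 244.8 to 283 and 229 to 261 TPM. NT5E was at 0.0876 to 0.334 TPM over the 6 libraries, from 4 to 18 reads each, and was below the minimum for the test. The genes thus did not follow the basal B name, which stands for mesenchymal-like lines, as 1 group. CAV2 was at 259 TPM in HCC70 non-BCSCs and at 87.1 TPM in those of Hs578T, and ANXA1 at 1480.3 and 627.5 TPM. TYRO3 was at 21.8 and 22.1 TPM. In the same order, CAV1 (199 and 511 TPM), PLAUR (18.6 and 56.1 TPM) and F3 (11.9 and 76.6 TPM) went with the name, being higher in Hs578T. HCC70 held CDCP1 and almost no NT5E, and Hs578T the reverse, in tables that were normalized separately. None of the 57 tested partner genes passed in HCC70 in limma, and 14 had an unadjusted p under 0.05. The summed level of 8 epithelial markers overlapped between the groups, with 4443 to 5244 TPM in the non-BCSC libraries and 4539 to 5258 TPM in those of BCSCs. Most of it was KRT19 (means 3429 and 3326 TPM). CDH1 was separated with BCSCs above (485 to 557 TPM) and FOXA1 with BCSCs below (66.4 to 57.1 TPM), and the remaining markers overlapped.

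The difference between BCSCs and non-BCSCs was itself compared between the lines in a model of the 12 sorted libraries, in which 6 members could be tested. CAV1 and ANXA1 passed, and 7.11% of 11668 genes did. For CAV1 the difference in HCC70 exceeded that in Hs578T by 0.27 on the log2 scale (standard error 0.06, adjusted p = 0.025 from limma), and for ANXA1 by 0.32 (standard error 0.08, adjusted p = 0.042 from limma). CAV1 was at 199.3, 198.8 and 197.8 TPM in HCC70 non-BCSCs and at 211, 207 and 217 TPM in BCSCs. ANXA1 was at 1548, 1425 and 1468 TPM in HCC70 non-BCSCs and at 1660, 1595 and 1733 TPM in BCSCs. Both genes thus lay below every non-BCSC library in Hs578T BCSCs and above every one in HCC70 BCSCs. The calls were not stable: CAV1 lost its call in 6 and ANXA1 in 10 of 17 alternatives, CAV1 when either of non-BCSC replicates 1 and 2 or BCSC replicates 1 and 2 of Hs578T, or BCSC replicate 1 of HCC70, was left out (adjusted p = 0.06 to 0.075), and ANXA1 under the same omissions and without HCC70 non-BCSC replicate 2 or 3 or BCSC replicate 3 (adjusted p = 0.059 to 0.11). Over all 17 alternatives the adjusted p from limma ranged from 0.016 to 0.087 for CAV1 and from 0.039 to 0.11 for ANXA1. F3 (0.21, adjusted p = 0.11), PLAUR (0.18, adjusted p = 0.19), TYRO3 (0.1, adjusted p = 0.6) and CAV2 (-0.01, adjusted p = 0.95) did not pass in limma.

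**Figure D4:**
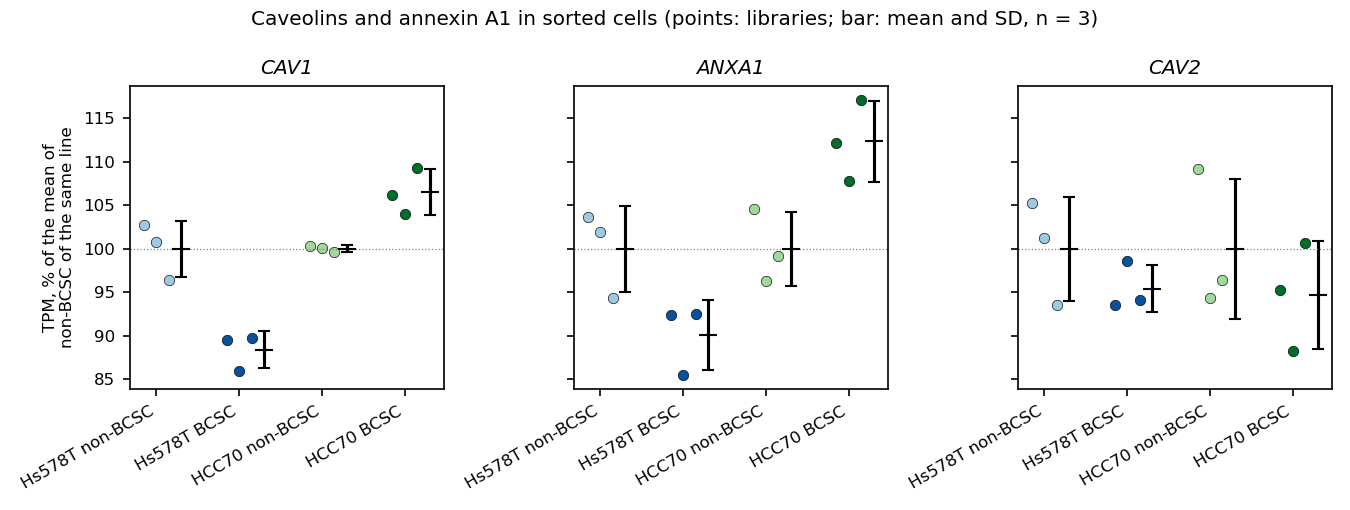
TPM of CAV1, ANXA1 and CAV2 in each sorted library, as percent of the mean of the non-BCSC libraries of the same line; bars are mean and SD (n = 3). For CAV1 and ANXA1 the BCSC points lie below the non-BCSC points in Hs578T and above them in HCC70, whereas for CAV2 the groups overlap in both lines.

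The caveolins also stood in a different ratio in the sorted lines. CAV1 over CAV2 in TPM was 5.73, 5.85 and 6.05 in Hs578T non-BCSCs and 5.61, 5.12 and 5.6 in BCSCs. In HCC70 it was 0.704, 0.812 and 0.791 in non-BCSCs and 0.854, 0.902 and 0.831 in BCSCs, so that CAV2 was the more abundant caveolin transcript per length there. The 2 tables were scaled separately, which cancels in a ratio within a library.

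Levels over the 8 conditions were set side by side as CPM of the recovered reads, since the 4 tables were normalized separately. AXL was high wherever it was listed except in the OE-labelled libraries. Its means were 1710.4 in sgCtrl, 1584 in Hs578T BCSCs, 1502 in KIF20A sg1, 1341 in Hs578T non-BCSCs, 962 in EV and 0.771 in the OE-labelled libraries. Among the first 3 each overlapped its neighbor, but sgCtrl and KIF20A sg1, which are not neighbors in this order, did not overlap. NT5E led in EV (1239), followed by KIF20A sg1 (705) and sgCtrl (629.7), which overlapped, and by Hs578T BCSCs (122) and non-BCSCs (103). In HCC70 BCSCs (0.362), the OE-labelled libraries (0.275) and HCC70 non-BCSCs (0.232), NT5E was near 0 in each, and these neighbors overlapped.

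**Figure D5:**
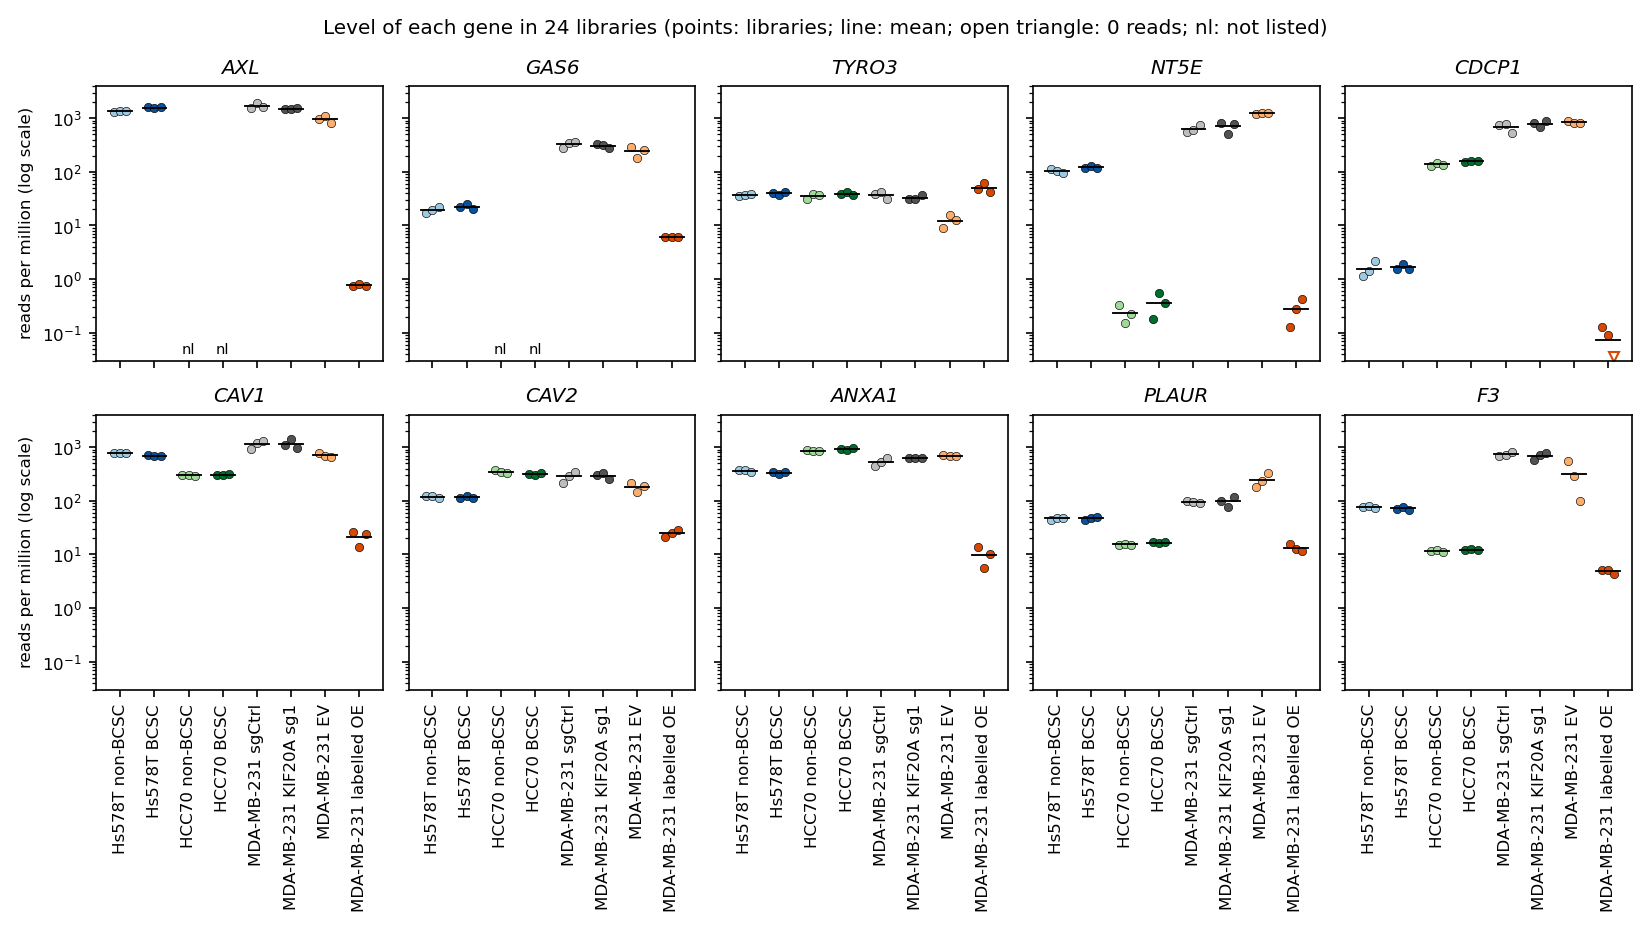
CPM of the recovered reads of each gene in each of the 24 libraries, on a log axis; lines are means of 3 libraries, an open triangle marks 0 reads and nl a gene not listed. AXL, NT5E and CDCP1 span over 3 orders of magnitude between conditions, while TYRO3 means stay between 12.3 and 50.4.

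CDCP1 ranked with MDA-MB-231 at the top (836 in EV, 791 in KIF20A sg1 and 679 in sgCtrl, each overlapping the next), then HCC70 BCSCs (157) and non-BCSCs (138). It was at 1.67 and 1.56 in Hs578T BCSCs and non-BCSCs, which overlapped, and at 0.0718 in the OE-labelled libraries. TYRO3 was the flattest member, with its highest mean in the OE-labelled libraries (50.4), its lowest in EV (12.3) and the other 6 means between 32.7 and 39.9, each overlapping the next. GAS6 was highest in sgCtrl (327), KIF20A sg1 (309) and EV (245), at 22.5 and 19.7 in Hs578T, and at 6.08 in the OE-labelled libraries. PLAUR was higher in EV (248) than in KIF20A sg1 (98) and sgCtrl (93.5), and F3 lower in EV (319) than in sgCtrl (736) and KIF20A sg1 (686); experiment and vector cannot be told apart there. PLAUR in HCC70 non-BCSCs (15.3) overlapped with the OE-labelled libraries (13.3).

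For CAV1 the order ran from KIF20A sg1 (1167) and sgCtrl (1144) over Hs578T non-BCSCs (781), EV (706) and Hs578T BCSCs (701) to HCC70 (307 and 299) and the OE-labelled libraries (21.4). For ANXA1 it ran from HCC70 BCSCs (923) and non-BCSCs (851) over EV (699), KIF20A sg1 (633) and sgCtrl (538) to Hs578T (367 and 335) and the OE-labelled libraries (9.8). CAV2 was highest in HCC70 (352 in non-BCSCs and 322 in BCSCs), followed by the depletion experiment (296 in KIF20A sg1 and 286 in sgCtrl), and each of these overlapped the next.

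Over the 6 conditions of the 3 tables that list AXL, the 5 genes whose condition means followed AXL most closely included CD44, BASP1, PSMD5 and PFKP. Pearson's r of their log2 means with AXL was 0.999 for CD44 and 0.997 for BASP1, PSMD5 and PFKP, among 10852 genes, and is a description over 6 points, most of whose spread comes from the OE-labelled libraries. Of the members, CAV1 (r = 0.991, rank 32) and ANXA1 (r = 0.986, rank 43) stood closest to AXL. NT5E (0.912), F3 (0.897), CAV2 (0.878) and PLAUR (0.839) followed, then GAS6 (0.655) and CDCP1 (0.579), and TYRO3 was negative (-0.54).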

How the data were processed

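RNA was poly-A selected into stranded libraries by the authors, sequenced as paired-end reads and aligned to GRCh38. The submitters' processing notes name HISAT2 2.0.5 and featureCounts 1.5.0-p3. The deposited tables of the sorted lines hold TPM, and the deposited OE table holds CPM. The deposited depletion table is named CPM by the authors, but its columns sum to 977394 to 1028621, so it was read as a signal per gene. Recovered reads were whole in 100% of values (tolerance 0.05 reads). Reads of a gene that share a divisor come out too low from TPM, so that depth in the sorted lines may be understated.

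A gene entered a fit where its mean over the 6 libraries reached 1. It was fitted on log2(value + 1), which understates changes of low genes, by limma 3.58.1 (R 4.3.3) with a trend, two-sided, with Benjamini-Hochberg adjustment over all genes of a comparison; 12 libraries entered the interaction model. Alternatives were a pseudocount of 0.1, a minimum of 5 or none, the median of ratios, a replicate block, each library left out, and edgeR 4.0.16 and DESeq2 1.42.0 on reads recovered from MDA-MB-231. The scripts were tested on simulated data.

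Named genes were the 10 genes, KIF20A, up to 3 genes per list and comparison past an adjusted p of 0.05 with the largest differences, and the 5 genes closest to AXL; that pattern was to use 8 conditions but used 6, since AXL was not listed for HCC70. MERTK, CD109, ADORA1, ENTPD1 and SLC29A2 were named after their values were seen. Members and lists were chosen with earlier results of these data known. Older symbols were matched through RefSeq synonyms (4 cavins in the sorted lines). Locations come from GENCODE 44 and promoters from RefSeq. Python 3.11.15, pandas 2.3.3 and matplotlib 3.10.9 were used. No column of values was left unused. A gene that the rule names is not reported here.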

Additional observations from a re-analysis of the deposited data

Results flagged for a closer look

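CAV1 and ANXA1 were flagged because the difference between BCSCs and non-BCSCs was not the same in both sorted lines, by the test of that difference itself. The difference in HCC70 minus that in Hs578T was 0.27 on the log2 scale for CAV1 and 0.32 for ANXA1. These calls were not stable: CAV1 kept its call in 11 and ANXA1 in 7 of 17 alternatives. Of all genes tested, 7.11% passed. All 3 Hs578T BCSC libraries lay below the non-BCSC libraries and all 3 HCC70 BCSC libraries above them for both genes. The line is also the batch, and the 2 cannot be told apart.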

How the results depend on the processing

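In Hs578T, 1 member passed; 0 did without a minimum and with the replicate block, 2 with the median of ratios, and 0 to 1 with a library left out. For the interaction, 2 members passed; 1 did without a minimum, 0 with the replicate block, and 0 to 2 with a library left out. No member passed in HCC70 or in the depletion experiment under any alternative run. DESeq2 called 16 of all genes in the depletion experiment where limma and edgeR called 0, and without sgCtrl replicate 3 limma called 144 (5 without KIF20A sg1 replicate 2). The median difference of the 10 genes in the OE-labelled libraries was -5.48 with a pseudocount of 0.1, -5.60 with the median of ratios, -6.06 with edgeR and -6.06 with DESeq2, and -5.58 to -4.96 with a library left out; each gene kept its sign. Rescaling by the median of ratios moved the median of all genes there from 0.37 to 0.03 and the calls from 7055 higher and 3579 lower to 5129 and 5007, while edgeR called 5673 and 5216. It moved the calls in Hs578T from 386 higher and 567 lower to 620 and 573, and those of the interaction from 656 and 174 to 403 and 333. Among single members, 2 values of CAV1 in Hs578T came to pass and 23 of AXL, CAV1 and ANXA1 no longer did. No pairing by replicate number was evident: deviations of same-numbered libraries from their group mean correlated at -0.16 to 0.19. With 3 libraries a group this cannot exclude pairing. The block lowered the calls over all genes from 953 to 669 in Hs578T, from 374 to 128 in HCC70 and from 830 to 302 for the interaction. With a library left out, these calls were 343 to 865, 32 to 270 and 291 to 1225; in HCC70 they were 178 without a minimum and 233 with the median of ratios. Depth limits CDCP1, NT5E and AXL in the OE-labelled libraries, which rest on 4, 16 and 44 reads.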
